A study of Mus musculus with 25 samples.

Results

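The macrophage and monocyte genes of mouse perigonadal white adipose tissue were followed here as a set of 35 genes among the 26420 gene names measured on the arrays. They were chosen by name as marker genes, with earlier results of these data known. There were 10 genes of macrophages in general, 7 of tissue-resident macrophages and 9 of lipid-associated macrophages. The others were 6 inflammatory and monocyte genes and 3 scavenger or alternative activation genes. All 35 had a probe, and all 35 gave a signal well above background on each of the 25 arrays. Each array held RNA from the perigonadal fat pad of a male C57BL6/J mouse, fasted for 24 hours and then refed for 18 hours with food and 20% glucose in the drinking water. In the ChREBPβ line, 7 wild-type mice (ChREBPβ WT) were compared with 6 mice lacking the ChREBPβ isoform (ChREBPβ KO), made by CRISPR/Cas9 deletion of the exon that only this isoform uses, in every tissue. In the total ChREBP line, 7 wild-type mice (total WT) were compared with 5 Mlxipl-null mice (total KO), which lack both isoforms, also in every tissue. Each knockout was set against wild types of its own line. No array held RNA of sorted macrophages, and the mice's ages were not given in the sources used here.

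Adipose tissue holds resident macrophages that take up debris, growth factors and lipoproteins through receptors such as MRC1, CD163, LYVE1 and TIM4. Monocytes enter the tissue through the chemokine receptor CCR2 and its ligand CCL2, and in fat that releases much lipid, macrophages take on a lipid-associated state marked by TREM2, CD9, GPNMB and osteopontin. ChREBP is a glucose-responsive transcription factor encoded by Mlxipl. In bulk tissue, fewer macrophages and less of a transcript per macrophage cannot be told apart.

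The values are log2 intensities, and a difference of 1 means 2-fold. Across the 25 arrays, the median spot read 84 to 127 in intensity where the local background read 15 to 22, and between 73.0% and 77.9% of the spots exceeded background well. Arrays of a group correlated at 0.970 to 0.997 over all probes. A Mlxipl probe stood at 15.74 to 16.24 in total WT and at 14.07 to 14.29 in total KO, a difference of -1.77 (limma, adjusted p = 1.11e-08). In the ChREBPβ line the same probe differed by -0.74 (adjusted p = 0.116), and whether it reads the deleted sequence was not settled here. Transcripts of liver, kidney and epididymis were found on some arrays of this fat pad, with Alb, the serum albumin gene, at 10.48 to 17.64. Values of these transcripts stand beside the macrophage genes they moved with.

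For 4 of the genes that the results turn on, the 250 bases before the RefSeq transcription start (GRCm38.p6, read 5′ to 3′ on the gene's strand) are shown. The capitals mark the letters GAGGAA or their reverse complement TTCCTC, the core recognised by PU.1, the transcription factor that defines the macrophage lineage. Marco and Ccl3 passed the test in total KO and Mmp12 between the wild types, and Spp1 had the set's largest difference in the ChREBPβ line. Clec10a and Arg1, which also passed, have no window in the table used.
Marco, chr1:120505025-120505274, minus strand: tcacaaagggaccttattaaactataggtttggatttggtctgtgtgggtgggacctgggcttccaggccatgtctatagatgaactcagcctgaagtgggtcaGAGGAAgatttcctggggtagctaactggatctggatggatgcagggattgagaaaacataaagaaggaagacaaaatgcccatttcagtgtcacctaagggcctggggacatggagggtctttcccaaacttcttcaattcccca
Ccl3, chr11:83649379-83649628, minus strand: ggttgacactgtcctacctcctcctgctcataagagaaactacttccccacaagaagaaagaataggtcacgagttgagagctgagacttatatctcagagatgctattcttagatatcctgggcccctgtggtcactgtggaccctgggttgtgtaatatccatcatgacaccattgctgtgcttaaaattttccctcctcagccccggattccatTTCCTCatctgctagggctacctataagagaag
Mmp12, chr9:7344147-7344396, plus strand: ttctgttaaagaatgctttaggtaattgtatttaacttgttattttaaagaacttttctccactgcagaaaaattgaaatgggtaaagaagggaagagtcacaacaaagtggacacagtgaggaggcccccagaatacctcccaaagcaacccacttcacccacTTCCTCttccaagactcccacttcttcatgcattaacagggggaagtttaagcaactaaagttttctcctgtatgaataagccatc
Spp1, chr5:104434861-104435110, plus strand: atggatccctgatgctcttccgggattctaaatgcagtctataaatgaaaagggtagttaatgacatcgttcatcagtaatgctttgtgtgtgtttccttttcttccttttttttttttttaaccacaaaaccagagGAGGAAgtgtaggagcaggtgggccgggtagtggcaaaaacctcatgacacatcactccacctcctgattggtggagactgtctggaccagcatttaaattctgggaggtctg
Each of the 4 windows held 1 match. Among the 27 genes of the set with a window in the RefSeq table, 13 (48.1%) held these letters on either strand, against 6252 of 27025 windows (23.1%) of all genes. CACGTG, the E-box core that ChREBP-type factors read, was in 0 of the 27 windows and in 6.05% of all windows. TGANTCA, the AP-1 core, was in 3 of 27 (11.1%) and in 6.87% of all. Neither of these cores lay in the 4 windows shown, so no match overlapped another. A match of letters is a description and not a site of binding.

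In ChREBPβ KO against ChREBPβ WT, 0 of the 35 genes passed the threshold (limma, adjusted p under 0.05), and 0% of all genes did. At an unadjusted p under 0.05 there were 7 of the 35, where 9.45% of all genes and 3659 of the 40561 probes tested lay. In total KO against total WT, 3 of the 35 (8.57%) passed, beside 9.25% of all genes, so their share lay near that of the array as a whole. Clec10a and Marco were lower and Ccl3 was higher. At an unadjusted p under 0.05 there were 9 of the 35 in total KO, where 21.0% of all genes lay. Of the 35 genes, 25 had a lower fitted value in total KO and 25 in ChREBPβ KO, where 45.7% and 43.7% of all genes did. The median difference of the set was -0.15 in total KO and -0.08 in ChREBPβ KO, beside 0.02 and 0.02 over all genes.

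The difference between the effects of both knockouts passed for 0 of the 35 genes and for 3.47% of all genes (2 of the 35 at an unadjusted p under 0.05, where 13.3% of all genes lay). Total WT against ChREBPβ WT passed for 2 of the 35 (5.71%), Mmp12 and Arg1, and for 22.0% of all genes. The 2 wild-type groups belong to separate lines and share no littermates, so that line, ancestry and housing cannot be told apart in this comparison.

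**Figure D1:**
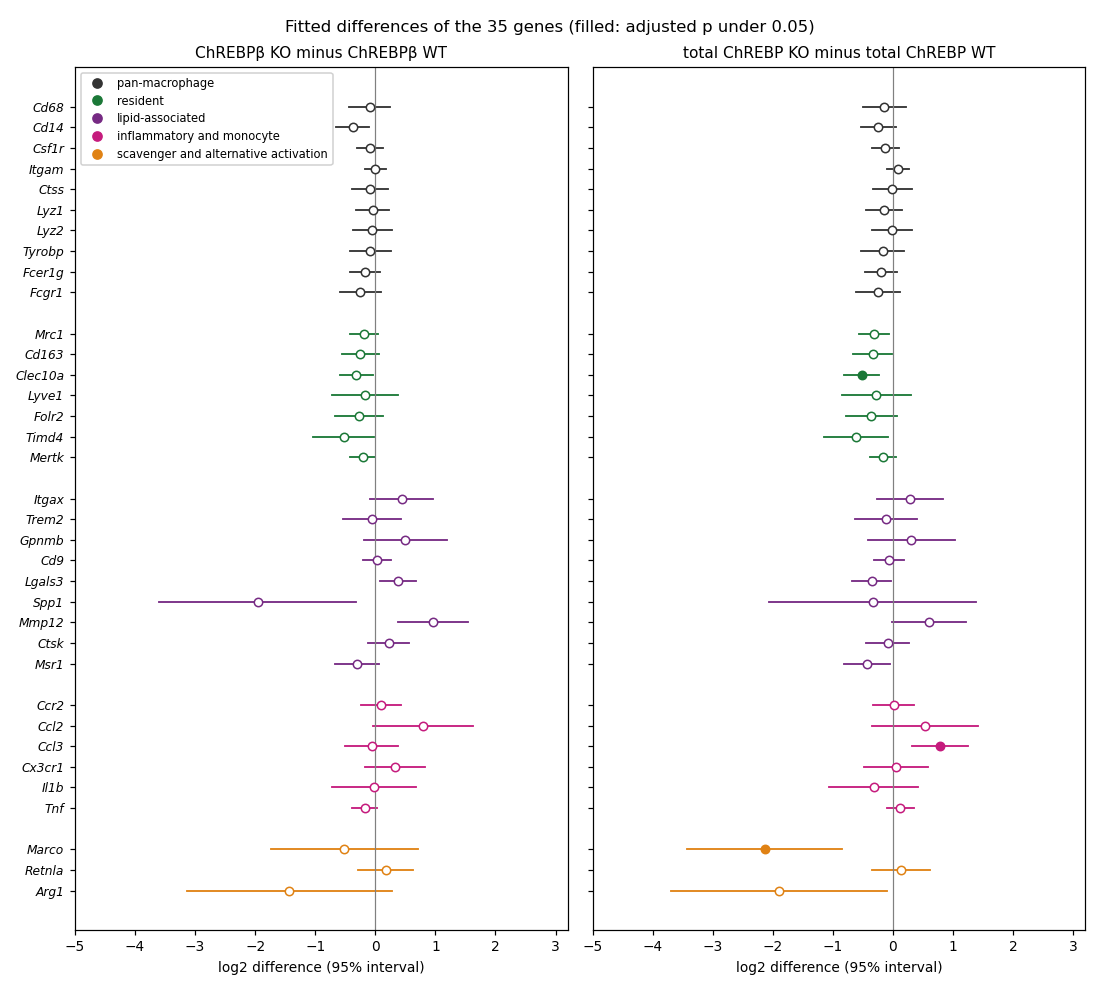
Fitted log2 differences of the 35 genes with 95% intervals, knockout minus wild type, in the ChREBPβ line (left) and the total ChREBP line (right), coloured by list. Filled points passed the adjusted p of 0.05, which 3 genes did on the right (Clec10a, Ccl3, Marco) and 0 on the left.

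Resident macrophage genes had lower fitted values in total KO for all 7 genes, with a median of -0.34, and 1 of the 7 passed the test. In ChREBPβ KO all 7 were also fitted lower, with a median of -0.25, and 0 passed. Clec10a, which encodes the galactose-binding lectin MGL1 of resident and alternatively activated macrophages, was the gene that passed. Its probe lies at chr11:69984232-69984291 in mm9, the build of the array design. The 5 total KO arrays, replicates 1, 2, 3, 4 and 7, read 12.71, 12.49, 12.60, 12.57 and 12.01. The 7 total WT arrays ran from 12.79 through a median of 13.12 to 13.19. By this probe each total KO array lay below each total WT array, and replicate 7 was the lowest of all 25. How many of all genes separate in this way was not counted, here and below. The difference was -0.52, or 1.43-fold, with an SE of 0.14 (limma, adjusted p = 0.0204).

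In the ChREBPβ line Clec10a ran from 12.69 through 13.06 to 13.94 in WT and from 12.60 through 12.98 to 13.14 in KO. These groups overlapped, with a difference of -0.32 (adjusted p = 0.476). The effects of the 2 knockouts differed by -0.20, with a 95% interval of -0.60 to 0.20 (adjusted p = 0.8). Within the 4 wash batches, each of which held all 4 groups, the total KO difference of Clec10a was -0.48, -0.29, -0.95 and -0.46. The total KO arrays of batches 1 to 4 were replicates 2 and 4, replicate 3, replicate 7 and replicate 1. Batch 2 held a lone array of each group. Differences within batches therefore rest on few mice, here and below. The second Clec10a probe differed by -0.48 in total KO and missed the threshold (adjusted p = 0.127). By that probe the groups overlapped, at 6.07 to 6.78 in total KO and 6.57 to 7.32 in total WT. The call ended without any of 3 arrays: without total KO replicate 7 (difference -0.40, adjusted p = 0.104), without total KO replicate 1 (adjusted p = 0.0681) or without total WT replicate 4 (adjusted p = 0.0529).

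Timd4, which encodes the phosphatidylserine receptor TIM4 of long-lived resident macrophages, had the widest fitted gap of the list. It read 7.19, 6.62, 7.74, 6.98 and 6.73 in total KO and ran from 7.14 through 7.65 to 8.21 in total WT. Of the 5 knockout arrays, 3 lay below all total WT arrays, and the difference of -0.61 missed the threshold (adjusted p = 0.17). In ChREBPβ KO Timd4 differed by -0.52 (adjusted p = 0.539).

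Mrc1, the mannose receptor, differed by -0.32 in total KO (adjusted p = 0.107) and by -0.19 in ChREBPβ KO (adjusted p = 0.653). Cd163, the receptor for haemoglobin and haptoglobin, differed by -0.34 and -0.25, and Folr2, folate receptor β, by -0.36 and -0.27. Lyve1, the hyaluronan receptor, differed by -0.28 and -0.17, and Mertk, the receptor that binds apoptotic cells through GAS6 and PROS1, by -0.16 and -0.21. None of these passed in either line (limma, lowest adjusted p 0.107 and 0.538). Between total WT and ChREBPβ WT, 6 of the 7 resident genes were fitted lower, with a median of -0.27, and 0 passed.

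The list level, the mean over the 7 genes of each array's departure from that gene's mean over the 25 arrays, put these values side by side. For the resident genes it was -0.23, -0.60, -0.10, -0.18 and -0.73 in total KO replicates 1, 2, 3, 4 and 7. Total WT ran from -0.31 through -0.00 to 0.31, so 2 of the 5 knockout arrays lay below all total WT arrays and 3 lay among them. ChREBPβ WT ran from -0.31 through 0.19 to 0.74 and ChREBPβ KO from -0.22 through -0.07 to 0.30. Within the 4 wash batches the total KO minus total WT level was -0.58, 0.21, -0.69 and -0.29, so 1 batch went the other way. That batch held only replicate 3 of each of these groups.

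**Figure D2:**
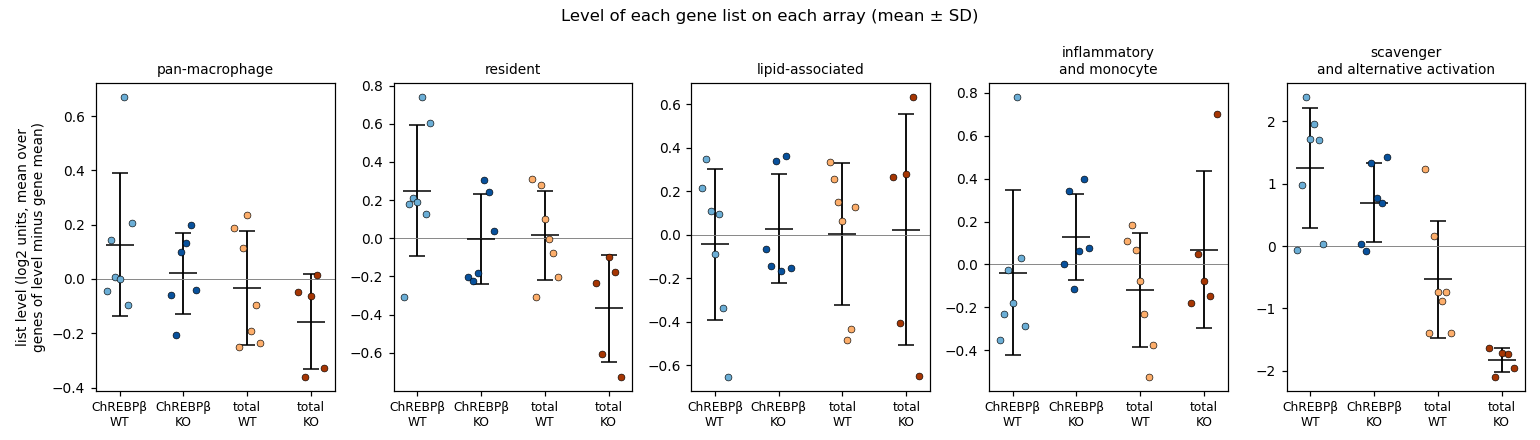
List level on each of the 25 arrays (1 point per mouse, bars show the mean ± SD of each group), in log2 units, for the 5 lists. The resident list had group means of 0.25, -0.00, 0.02 and -0.37 from left to right, and the scavenger list was below -1.6 on all 5 total KO arrays.

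The 10 genes of macrophages in general moved little. In total KO 9 of the 10 were fitted lower, with differences between -0.25 and 0.08, a median of -0.15 and 0 that passed. In ChREBPβ KO all 10 were fitted lower, with a median of -0.09. Cd68, the lysosomal glycoprotein used to count macrophages, read 12.53, 12.08, 12.52, 12.75 and 11.59 in total KO and from 11.91 through 12.33 to 12.88 in total WT. These overlapped except for replicate 7, with a difference of -0.14 (95% interval -0.50 to 0.22, adjusted p = 0.75). Csf1r, the CSF1 receptor on which macrophages depend, differed by -0.13 (95% interval -0.35 to 0.10), and Ctss, the lysosomal protease cathepsin S, by -0.01 (95% interval -0.33 to 0.31).

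Cd14, the co-receptor for bacterial lipopolysaccharide, had the lowest unadjusted p of this list in the ChREBPβ line. It ran from 10.74 through 10.99 to 11.86 in ChREBPβ WT and from 10.62 through 10.80 to 10.83 in ChREBPβ KO. Only 2 of the 6 knockout arrays lay below all the wild types, and the difference was -0.38 (adjusted p = 0.405). The signalling adaptors Tyrobp and Fcer1g differed by -0.17 and -0.19 in total KO, and Fcgr1, a high-affinity receptor for IgG, by -0.25. The lysozyme genes Lyz1 and Lyz2, near-identical neighbours on chromosome 10, differed by -0.15 and -0.02. Their probes shared no run of 20 bases, and their levels still moved together between mice of a group (r = 0.909 over 25 arrays), so how much of each signal came from the other gene is uncertain.

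Itgam, which encodes the integrin CD11b, is reported as uncertain. Its brighter probe begins with a repeat, printed here because it bears on what the probe reads.
Itgam probe, bases 1 to 20 of 60: cacacacacacacacacaca
The probes of 74 other genes on the array hold that stretch. This probe was the exception among the genes of macrophages in general: with group means removed, its median correlation with the other general and resident genes was -0.33. Its second probe correlated with it at only 0.319, and both differed little in total KO, by 0.08 and 0.02. The 2 Csf1r probes correlated at 0.106, and the second differed by -0.17 in total KO (adjusted p = 0.112).

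Lipid-associated macrophage genes showed no common direction. In total KO 3 of the 9 were fitted higher and 6 lower, with a median of -0.09, and 0 passed. In ChREBPβ KO 6 were fitted higher and 3 lower, with a median of 0.22, and 0 passed. Trem2, the lipid-sensing receptor that marks this state, differed by -0.06 in ChREBPβ KO and by -0.11 in total KO, and the tetraspanin Cd9 by 0.03 and -0.06. Gpnmb, a lysosome-linked glycoprotein, differed by 0.50 and 0.31, Itgax, the integrin CD11c, by 0.44 and 0.29, and Ctsk, the protease cathepsin K, by 0.22 and -0.09. Msr1, scavenger receptor A, differed by -0.30 and -0.42.

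Mmp12, the macrophage elastase, passed between the wild types. Its probe lies at chr9:7358559-7358618 (mm9). ChREBPβ WT ran from 6.72 through 7.10 to 8.80 and total WT from 7.76 through 8.32 to 9.07. The groups overlapped, with 3 of the 7 total WT arrays above all ChREBPβ WT arrays. Total WT was higher by 1.02, or 2.02-fold, with an SE of 0.27 (limma, adjusted p = 0.00932), and the other 2 probes gave 0.99 and 0.89 (adjusted p = 0.00849 and 0.00564). Within wash batches this difference was 1.52, 0.11, 0.64 and 1.34.

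Within the lines, ChREBPβ KO ran from 7.42 through 8.46 to 9.36, and total KO read 9.47, 8.36, 9.63, 9.78 and 8.40. In ChREBPβ KO Mmp12 differed by 0.97, or 1.95-fold, the lowest p of the 35 genes in that line (unadjusted p = 0.00246 and adjusted p = 0.345 in the limma fit). In total KO it differed by 0.60 (adjusted p = 0.266), with 3 of the 5 arrays above all total WT arrays. The difference between these effects was -0.37, with a 95% interval of -1.22 to 0.47.

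Lgals3, which encodes the galactose-binding lectin galectin 3, went opposite ways in the lines. It ran from 13.95 through 14.40 to 14.79 in ChREBPβ WT and from 14.36 through 14.74 to 15.21 in ChREBPβ KO. It ran from 14.36 through 14.47 to 14.63 in total WT and read 14.21, 13.71, 14.32, 14.36 and 14.08 in total KO. By the brighter probe, all 5 total KO arrays lay below the 7 total WT arrays, replicate 4 by less than the second decimal shows. Of the 6 ChREBPβ KO arrays, 2 lay above all ChREBPβ WT arrays. The separate differences were 0.38 (adjusted p = 0.434) and -0.36 (adjusted p = 0.18).

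The effect of total KO minus that of ChREBPβ KO on Lgals3 was -0.74 with an SE of 0.21 and just missed the threshold (adjusted p = 0.0596). It passed without ChREBPβ KO replicate 8 (-0.83, adjusted p = 0.0215), without ChREBPβ WT replicate 6 (-0.82, adjusted p = 0.031) and under 4 other settings of the processing. The second probe gave -0.67 (adjusted p = 0.174). By that probe total KO and total WT overlapped, at 12.83 to 13.68 and 13.44 to 14.02.

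Spp1, which encodes the secreted phosphoprotein osteopontin, had the largest fitted difference of the 35 genes in the ChREBPβ line. Its probe lies at chr5:104869788-104869847 (mm9). ChREBPβ WT ran from 5.98 through 9.26 to 12.43 and ChREBPβ KO from 6.33 through 6.91 to 8.43. Both groups were wide and overlapped, and the difference of -1.96, or 3.88-fold, had an SE of 0.79 and did not pass (limma, adjusted p = 0.461). Total WT ran from 5.64 through 7.59 to 8.95, and total KO read 8.10, 5.97, 7.54, 10.15 and 5.42, so 1 knockout array lay above and 1 below all total WT arrays.

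The kidney gene Kap, which is not a macrophage gene, moved with Spp1 in the ChREBPβ line. Kap ran from 5.06 through 9.46 to 16.12 in ChREBPβ WT and from 5.01 through 7.67 to 13.01 in ChREBPβ KO. Across those 13 mice Spp1 and Kap correlated at r = 0.714 and rho = 0.731 (permutation test, 2-sided, p = 0.0048 and 0.0061, adjusted p = 0.026 for r over the 32 relations tested). Without the 2 arrays farthest from the median in Kap, r was 0.538. The permutations pooled WT and KO mice, and with group means removed r was 0.472 over all 25 arrays. Across the 7 total WT mice r was -0.396 and rho was -0.321 (exact permutation test, p = 0.37 and 0.5, adjusted p = 0.53 for r). The part of kidney RNA in the Spp1 values was not tested.

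**Figure D3:**
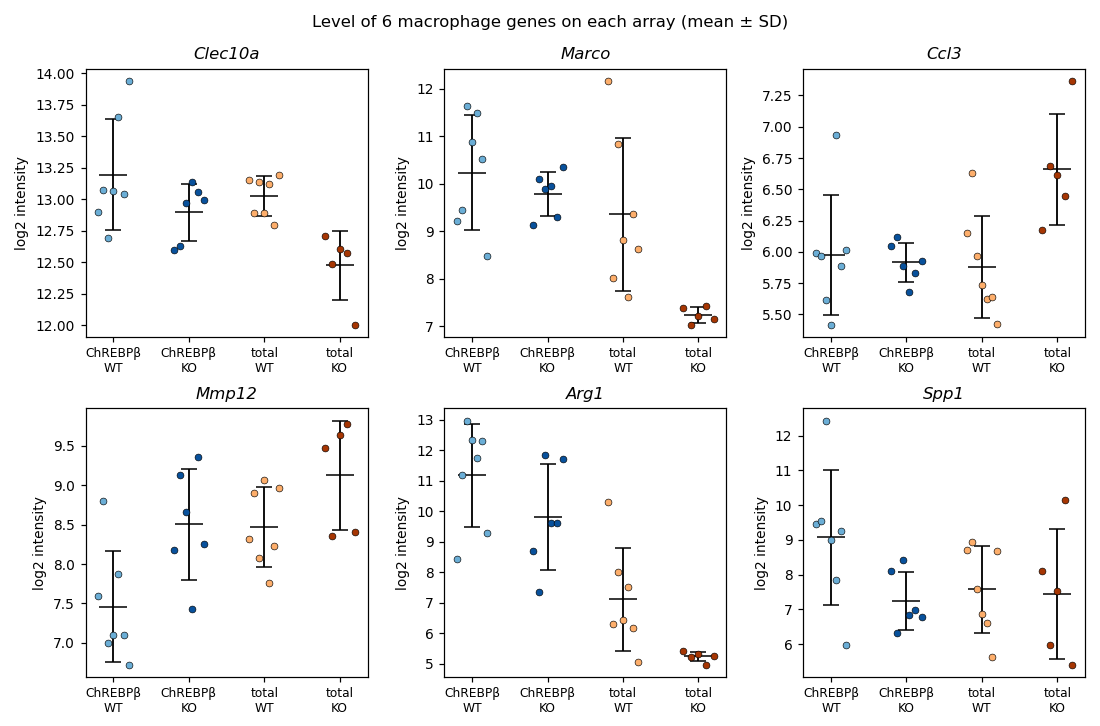
Log2 intensity of 6 genes on each array (1 point per mouse, bars show the mean ± SD), by group. All total KO points lie below all total WT points for Clec10a and Marco, and the wild types of both lines differ for Mmp12 and Arg1.

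Among inflammatory and monocyte genes, 1 of 6 passed in total KO. Ccl3, a chemokine that draws leukocytes, was higher in total KO. Its probe lies at chr11:83461358-83461417 (mm9). The total KO arrays read 6.17, 6.69, 6.62, 6.45 and 7.37, and total WT ran from 5.42 through 5.73 to 6.63. The groups overlapped, with 2 of the 5 knockout arrays above all total WT arrays and replicate 7 the highest. The difference was 0.78, or 1.72-fold, with an SE of 0.22 (limma, adjusted p = 0.0314).

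In the ChREBPβ line Ccl3 ran from 5.42 through 5.96 to 6.93 in WT and from 5.68 through 5.91 to 6.12 in KO, with a difference of -0.06 (adjusted p = 0.971). The effects of the knockouts differed by 0.84, with a 95% interval of 0.20 to 1.49, and this did not pass over all genes (adjusted p = 0.187). Within wash batches the total KO difference was 0.72, -0.01, 1.74 and 0.39, so that it was near 0 in 1 of the 4. The -0.01 compared total KO replicate 3 with total WT replicate 3 alone, and the 1.74 rested on total KO replicate 7. Without total KO replicate 7 it was 0.54 (adjusted p = 0.161), and it also missed the threshold without total KO replicates 2 or 4 or total WT replicates 6, 7 or 8 (adjusted p between 0.0534 and 0.0788).

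Tnf, the inflammatory cytokine, was read by 2 probes that disagreed. The second probe is described after its values were seen. The brighter probe differed by 0.12 in total KO (adjusted p = 0.626). The dimmer probe read 6.37, 6.80, 6.45, 6.17 and 6.78 in total KO and 5.04 through 5.67 to 6.31 in total WT. By that probe 4 of the 5 knockout arrays lay above all total WT arrays, with a difference of 0.78, or 1.72-fold, and an SE of 0.18 (limma, adjusted p = 0.00575). The probes correlated at 0.482 over the 25 arrays, and with both averaged Tnf passed in total KO, at 0.45 (adjusted p = 0.0228). By the dimmer probe total WT was also lower than ChREBPβ WT, with a difference of -0.61 (adjusted p = 0.00871).

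Il1b, the cytokine interleukin 1β, read 6.25, 6.61, 6.48, 5.97 and 8.37 in total KO and ran from 6.19 through 7.08 to 7.79 in total WT. Replicate 7 alone lay above all total WT arrays, and the difference was -0.32 (adjusted p = 0.716). Without replicate 7, Il1b differed by -0.92 in total KO and passed (limma, adjusted p = 0.0138). The call of Il1b therefore rested on whether that array was counted.

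Ccl2, the chemokine that recruits monocytes, differed by 0.80 in ChREBPβ KO (adjusted p = 0.58) and by 0.53 in total KO (adjusted p = 0.561). It ran from 10.82 through 10.95 to 12.98 in ChREBPβ WT and from 11.30 through 12.38 to 13.12 in ChREBPβ KO, groups that overlapped. Its receptor Ccr2 differed by 0.10 and 0.01, and Cx3cr1, the fractalkine receptor of patrolling monocytes, by 0.33 and 0.06.

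Among the 35 genes, Marco and Arg1, of the scavenger and alternative activation list, had the largest differences of the total ChREBP line. Of these only Marco passed. Marco, a class A scavenger receptor that binds bacteria and particles, was lower in total KO. Its probe maps to chr1:122371115-122371134 (mm9). The total KO arrays read 7.39, 7.04, 7.21, 7.42 and 7.15, and total WT ran from 7.63 through 8.82 to 12.17. Each knockout array lay below each total WT array, and the wild types spread over more than 4 log2 units. The difference was -2.13, or 4.39-fold, with an SE of 0.62 (limma, adjusted p = 0.0338).

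In the ChREBPβ line Marco ran from 8.48 through 10.51 to 11.64 in WT and from 9.14 through 9.91 to 10.36 in KO, which overlapped (difference -0.52, adjusted p = 0.865). The effects of the knockouts differed by -1.62, with a 95% interval of -3.39 to 0.16 (adjusted p = 0.468). The total KO difference had 1 sign in all wash batches, at -2.60, -0.82, -1.34 and -3.01. The call ended without any of 7 arrays in turn: total KO replicates 1, 2, 3, 4 or 7 or total WT replicates 4 or 7. In those fits the difference lay between -2.27 and -1.89 (limma, adjusted p 0.051 to 0.0869). With each of the 25 arrays left out in turn, it lay between -2.37 and -1.69.

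Cd5l, a secreted protein of Kupffer cells and other scavenging macrophages, moved with Marco. It ran from 7.76 through 9.19 to 11.19 in total WT and from 6.46 through 7.01 to 7.51 in total KO, without overlap, a difference of -2.34 (limma, adjusted p = 0.0054). Across the 13 mice of the ChREBPβ line the pair correlated at r = 0.899 and rho = 0.868 (permutation test, 2-sided, p = 4e-05 and 0.00031, adjusted p = 0.00032 for r). Across the 7 total WT mice r was 0.917 and rho 0.929 (exact permutation test, p = 0.002 and 0.0067, adjusted p = 0.013 for r). Without the 2 arrays farthest from the median in Cd5l, r was 0.805 and 0.770.

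Marco and Alb correlated at r = 0.568 and rho = 0.681 in the ChREBPβ line (permutation test, p = 0.043 and 0.013, adjusted p = 0.12 for r). In total WT r was 0.322 and rho 0.0714 (exact permutation test, p = 0.48 and 0.91, adjusted p = 0.64 for r). Without the 2 arrays farthest from the median in Alb, r was 0.783 in the ChREBPβ line and -0.238 in total WT. Whether these differed from the correlations of Marco with Cd5l was not tested. Of the 8 liver genes, 7 were fitted lower in total KO and 1 higher, by 0.95. By adjusted p, 1 passed lower and 1 passed higher. All 8 had an unadjusted p under 0.05, where 21.0% of all genes lay. Without the 3 total WT arrays with the most Alb, a setting added after the data were seen, Marco differed by -2.12 (limma, adjusted p = 0.0311), while Clec10a differed by -0.51 and no longer passed (adjusted p = 0.0873). The epididymal gene Adam7 ran from 6.25 through 7.92 to 15.71 in total WT and from 4.50 through 6.26 to 7.03 in total KO (difference -3.09, adjusted p = 0.118). Total WT replicate 2 was the highest array for both Adam7 and Marco. Across the 7 total WT mice the pair correlated at r = 0.705 and rho = 0.536 (exact permutation test, p = 0.071 and 0.24, adjusted p = 0.16 for r), and at r = 0.597 without the 2 arrays farthest from the median in Adam7. The part of liver or epididymal RNA in the Marco values was not tested.

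Arg1 encodes arginase 1, an enzyme of alternatively activated macrophages and of the hepatic urea cycle. It had the largest difference of the 35 genes between the wild types. Its probe lies at chr10:24636194-24636253 (mm9). ChREBPβ WT ran from 8.42 through 11.73 to 12.96 and total WT from 5.07 through 6.44 to 10.30. Of the 7 total WT arrays, 6 lay below all ChREBPβ WT arrays. Total WT was lower by 16.6-fold, a difference of -4.06 with an SE of 0.78 (limma, adjusted p = 0.00092), and it was lower in each wash batch, at -5.44, -4.86, -3.51 and -2.82.

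ChREBPβ KO ran from 7.35 through 9.61 to 11.85 (difference -1.43, adjusted p = 0.638). Total KO read 5.41, 5.24, 5.30, 4.98 and 5.27, all at the low end of total WT (difference -1.90, adjusted p = 0.215). Clec4f, a Kupffer cell gene not well above background on any total KO array, read 4.44 to 4.57 there. The total KO values of Arg1 thus lay near the floor, and the size of their difference is uncertain. Without the 3 total WT arrays with the most Alb, the total KO difference of Arg1 was -0.97.

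Arg1 followed the liver genes. Alb ran from 14.90 through 17.22 to 17.64 in ChREBPβ WT, from 13.56 through 15.99 to 17.48 in ChREBPβ KO and from 10.49 through 12.09 to 15.42 in total WT, and it lay between 10.48 and 10.81 in total KO. Between the wild types Alb differed by -4.11 (limma, adjusted p = 0.000292), and 7 of the 8 genes of the liver list were lower in total WT by that test. Across the 13 mice of the ChREBPβ line, Arg1 and Alb correlated at r = 0.974 and rho = 0.929 (permutation test, 2-sided, p = 1e-05, the smallest that 100000 resamples can give, and 4e-05), with r = 0.975 without the 2 arrays farthest from the median in Alb.

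Across the 7 total WT mice r of Arg1 with Alb was 0.792 and rho 0.607 (exact permutation test, p = 0.028 and 0.17, adjusted p = 0.099 for r), and r fell to 0.301 without the 2 farthest arrays, so that relation rested on those. The liver list level had group means of 2.74, 1.60, -1.52 and -3.64 in ChREBPβ WT, ChREBPβ KO, total WT and total KO. Clec4f, a defining gene of Kupffer cells, the liver's own macrophages, was well above background on all 13 arrays of the ChREBPβ line, on 5 of the 7 total WT arrays and on 0 of the 5 total KO arrays. The part of liver RNA in the Arg1 values was not tested.

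**Figure D4:**
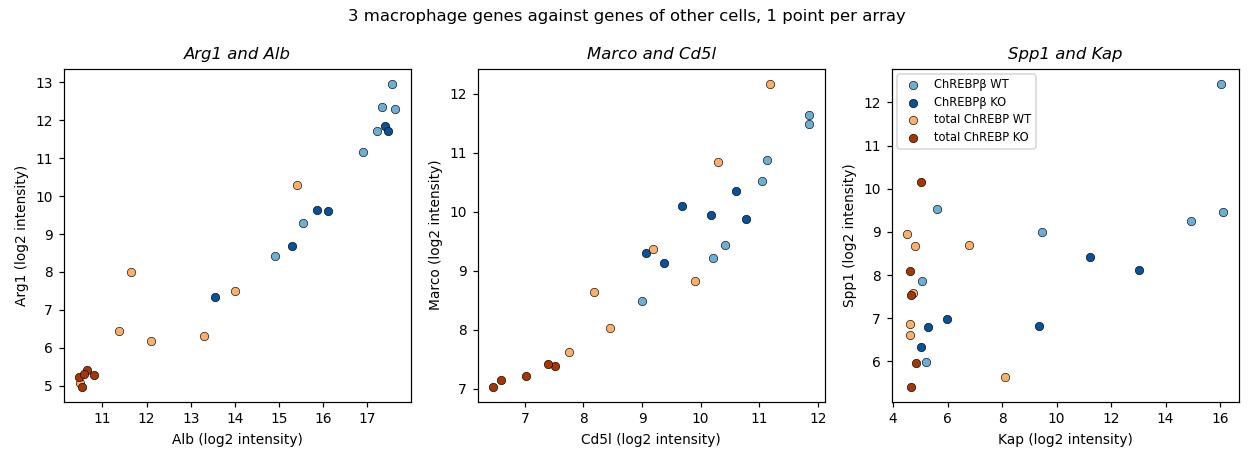
Log2 intensity of Arg1 against Alb, Marco against Cd5l and Spp1 against Kap, 1 point per mouse in each panel, coloured by group. Arg1 rises with Alb over the whole range, Marco rises with Cd5l, and Spp1 is spread widely where Kap is low.

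Retnla, a secreted protein induced by interleukin 4, was the third gene of this list and differed by 0.17 in ChREBPβ KO and 0.13 in total KO. It read 15.97, 15.14, 16.06, 16.12 and 15.39 in total KO and from 14.96 through 15.79 to 16.22 in total WT, which overlapped. The level of the scavenger list lay between -2.10 and -1.65 on the total KO arrays and between -1.40 and 1.24 on the total WT arrays, without overlap. As Retnla moved little, this level followed Marco and Arg1.

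The 35 genes also varied between mice of the same group, and this gave a picture of which transcripts travelled together. With group means removed, the median correlation over the 25 arrays was 0.61 among the pairs of general genes, 0.64 among resident genes and 0.56 between these lists. It was 0.38 among lipid-associated genes, 0.34 among inflammatory genes, 0.18 between lipid-associated and resident genes and 0.02 between lipid-associated and inflammatory genes. These are descriptions over arrays that share their normalization and hold 4 groups.

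The closest pairs were Tyrobp with Ctss (0.912), Lyz1 with Lyz2 (0.909) and Lyve1 with Timd4 (0.906). Gpnmb was closest to Ctsk (0.851), Itgax to Mmp12 (0.649) and Ccl3 to Il1b (0.648). Msr1, though listed as lipid-associated, was closest to Fcer1g (0.842) and Fcgr1 (0.834). Marco was closest to Msr1 (0.727) and Arg1 to Marco (0.675). Spp1 was nearest to Cd9 (0.598) and had a median correlation of -0.04 with the general and resident genes.

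**Figure D5:**
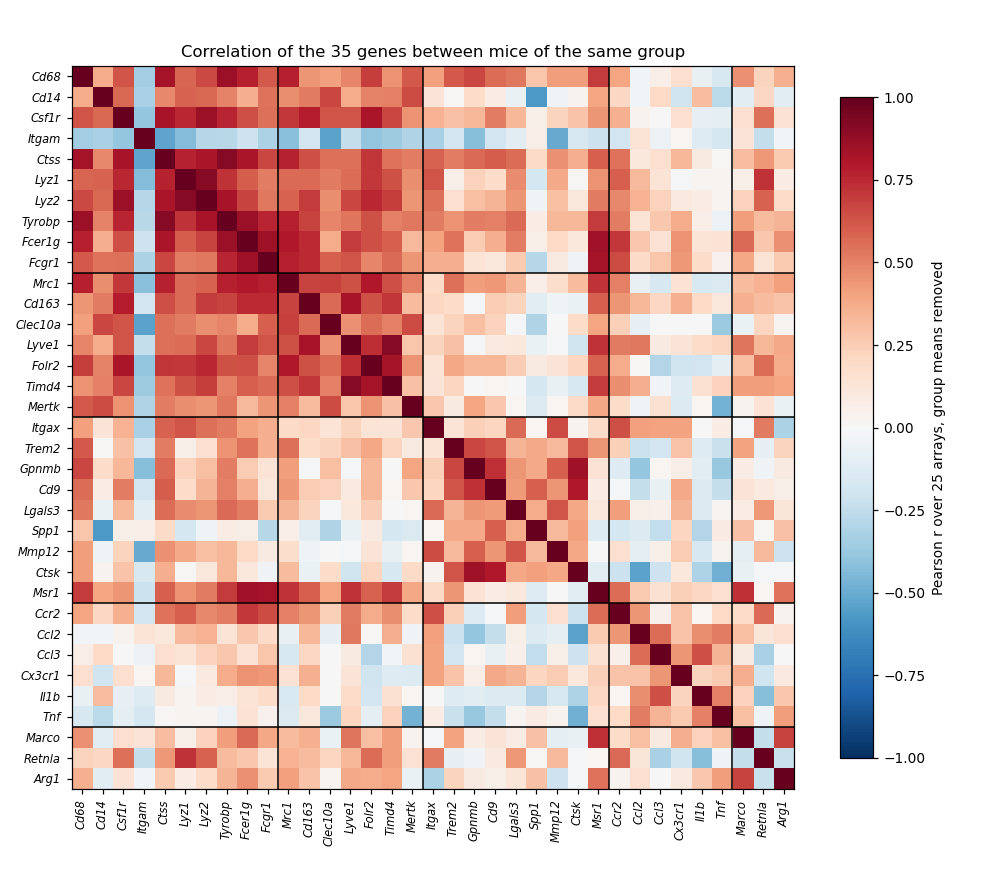
Pearson correlation of each pair of the 35 genes over 25 arrays after group means were removed, ordered by list, with black lines between lists. Most general and resident genes form 1 block of high values, with Itgam apart and some pairs lower, such as Mertk with Lyve1 (0.28). Gpnmb, Cd9 and Ctsk form a second, with 0.851 between Gpnmb and Ctsk. Trem2 correlated with these 3 genes at 0.63 to 0.67.

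Further genes of macrophage biology were read from 6 lists of 76 genes, of which 75 were measured. In ChREBPβ KO 0 of the 75 passed. In total KO 5 passed higher and 3 lower, where 9.25% of all genes passed. Of 19 other macrophage markers, 0 passed in total KO, 16 were fitted lower and the median was -0.16. Among ligands, Csf1, the growth factor that sustains macrophages, fell by 0.42 in total KO (limma, adjusted p = 0.0327), from 11.53 through 11.91 to 12.15 in total WT to between 11.22 and 11.58.

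Of 10 transcription factors, 2 passed in total KO. Irf8, a factor of monocyte and dendritic cell development, rose by 0.63 (adjusted p = 0.00625), from 11.00 to 11.15 in total WT to between 11.45 and 12.04, without overlap. Nr1h3, the oxysterol receptor LXRα, which adipocytes and hepatocytes also express, rose by 0.38 (adjusted p = 0.00232). Of 14 inflammatory response genes, Nos2, inducible nitric oxide synthase, alone passed, higher by 0.40 (adjusted p = 0.0282). None of the 5 antigen presentation genes passed, and their median was 0.13.

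Of 16 lysosome and lipid handling genes, 4 passed in total KO. Lpl, lipoprotein lipase, rose by 0.58 (adjusted p = 3.96e-06) and the cholesterol exporter Abcg1 by 0.66 (adjusted p = 0.00111). Plin2, the coat protein of lipid droplets, fell by 1.22 (adjusted p = 1.54e-07) and the lysosomal tetraspanin Cd63 by 0.30 (adjusted p = 0.00812). Adipocytes express Lpl, Plin2 and Abcg1 as well, and the source of these changes was not tested. Between the wild types 4 of the 75 passed higher and 8 lower in total WT, where 22.0% of all genes passed. Plin2 (0.86, limma, adjusted p = 1.33e-05) and Apoe (-0.29, adjusted p = 0.00302) were among those of the 75.

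Markers of other leukocytes were read in the same way. Among 7 measured neutrophil genes, 4 were fitted higher and 3 lower in total KO, with a median of 0.23 and differences up to 1.43. At an unadjusted p under 0.05 there were 4, where 21.0% of all genes lay. The 1 that passed was Ly6g, which fell by 0.56 (limma, adjusted p = 0.00157). The neutrophil list level had a mean of 0.27 in total WT, between -0.03 and 0.81, and of 0.52 in total KO, between 0.18 and 0.72. Between the wild types 2 neutrophil genes passed, both higher in total WT than in ChREBPβ WT. S100a9, which monocytes share, was 1 of them, higher by 1.47 (adjusted p = 0.00191), and was not the one with the lowest p.

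Of 5 measured dendritic cell genes, Flt3, a growth factor receptor of their precursors, alone passed in total KO, higher by 0.36 (limma, adjusted p = 0.0353). Of 9 measured lymphocyte genes, 0 passed in total KO, and all 9 were fitted lower in total WT than in ChREBPβ WT, with a median of -0.54 and 2 that passed. The fibroblast list level lay between -0.18 and 0.29 in total WT and between -0.37 and 0.05 in total KO. The part of these cells in the values of the 35 genes was not tested.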

How the data were processed

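Total RNA of 25 fat pads was hybridised to 1-colour Agilent arrays. The authors read the arrays with Agilent Feature Extraction 10.10.1.1 and used limma, per the submitters' processing notes. The deposited series table holds log2 values of 40561 probes: the median intensity of each spot, quantile normalised and filtered by the authors, with 23 empty cells. Its columns correlated with the log2 of the deposited raw intensity at 0.9998 or more. Probes were named by the array's gene names, and 0 per-sample columns were left unused.

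Here limma 3.58.1 in R 4.3.3 was fitted to all probes and 25 arrays, with group and wash batch (4 batches, 18 residual degrees of freedom), and p-values were adjusted over all probes by Benjamini-Hochberg. Each gene was read by its brightest probe, 22 of the 35 genes having 1 probe in the table. Probe coordinates are mm9, from the array design. Their place in exons was not determined here. No member spot was saturated. Correlations of 16 gene pairs, in the ChREBPβ line and in total WT, used permutation tests (Python 3.11.15). In the ChREBPβ line these tests pooled WT and KO mice. The fit was tested on simulated data.

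The members and lists were chosen with earlier results of these data known. Values by array are given for genes past the threshold in any comparison and for the 3 largest differences of each knockout, with a few others whose values bear on a result. From the related lists, all genes that passed in total KO were named, but only some of those that passed between the wild types. Of the genes of other cell types that passed, only some were named. Mice of a group are separate animals, and the number of arrays limits the precision. Alternatives were raw intensities renormalised, normexp correction with an offset of 50, processed signal scaled to the 75th percentile, other filters on dim probes, all probes of a gene averaged, no wash batch, slide as a block, the replicate number as a block, array weights, the compared groups alone and each array left out.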

Additional observations from a re-analysis of the deposited data

Results flagged for a closer look

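Of 160 sets of values tested, each 1 gene or list in 1 group, 9 held a mouse that stood apart by Dixon's ratio, where chance gives about 1 in 20. ChREBPβ WT replicate 6 was high in 5 of them: Ctss at 14.19 (next 13.49), Tyrobp at 13.45 (next 12.66), Ccl3 at 6.93 (next 6.01), the general macrophage list at 0.67 (next 0.20) and the inflammatory list at 0.78 (next 0.03). Total KO replicate 7 was high in 2, Il1b at 8.37 (next 6.61) and the inflammatory list at 0.70 (next 0.05). The other two were Lyz1 in total WT replicate 5, at 15.25 (next 14.85), and Cd163 in total KO replicate 2, at 11.17 (next 11.50).

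Without ChREBPβ WT replicate 6, the median ChREBPβ KO difference was -0.00 for the general list, -0.17 for the resident list and 0.18 for the inflammatory list, and 0 of the 35 genes passed. Without total KO replicate 7, the median total KO difference was -0.23 for the resident list and -0.11 for the general list, and Il1b was the 1 gene of the 35 that passed.

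The effect of total KO minus that of ChREBPβ KO passed for 2 related genes by the limma contrast. It was 0.44 for Lpl (adjusted p = 0.00824), which ran from 17.34 through 17.49 to 17.56 in total WT and from 17.93 through 18.07 to 18.11 in total KO. It was -1.27 for Plin2 (adjusted p = 2.55e-05), which ran from 16.36 through 16.57 to 16.87 in total WT and from 15.18 through 15.27 to 15.89 in total KO. In the ChREBPβ line these differed by 0.14 (adjusted p = 0.521) and 0.05 (adjusted p = 0.939).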

How the results depend on the processing

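The count of 0 genes in ChREBPβ KO held under all alternatives. The 3 genes of total KO became 4 with all probes of a gene averaged (Tnf added), 1 with the replicate block (Marco), 1 with the compared groups alone (Clec10a) and 1 to 3 when each array was left out in turn. Of these 3 genes, Ccl3 also missed the threshold with array weights, and Clec10a without the 3 total WT arrays with the most Alb. The 0 genes whose effects differed became 1 (Lgals3) with normexp, with the processed signal, without wash batch and with array weights, and 0 to 1 leaving out arrays. The 2 genes between wild types became 6 with the replicate block, 9 with array weights and 2 to 6 leaving out arrays. In that comparison Csf1r was also added with normexp, Tnf with all probes averaged and Il1b with the compared groups alone. The replicate block also moved the median resident difference of effects to 0.24, and same-numbered mice did not deviate together (r from -0.43 to 0.39), so the numbers were not taken as pairs. Without the 3 total WT arrays with an Alb level above 13, a setting chosen after seeing the data, the scavenger median in total KO was -0.97. The mean scavenger level in total KO was -1.58 with normexp and -2.12 with the processed signal, against -1.83. No gene that passed changed sign under any setting. Besides the resident difference of effects (-0.09 as reported), list medians that changed sign included those of ChREBPβ KO in the general list (-0.09, up to 0.00) and the inflammatory list (0.04, down to -0.04), of total KO in the lipid-associated list (-0.09, up to 0.02) and of the difference of effects in the inflammatory (-0.17, up to 0.12) and scavenger lists (-0.47, up to 0.05). Over all settings but those that left out 1 array each, Clec10a in total KO lay between -0.55 and -0.37 (adjusted p 0.00804 to 0.137), Ccl3 between 0.57 and 1.12 (0.0262 to 0.124) and Marco between -2.28 and -1.79 (0.0134 to 0.0909). Between wild types Mmp12 lay between 0.88 and 1.27 and Arg1 between -5.03 and -3.65, and both passed throughout. The effects' difference was not run with the compared groups alone. The cause of these changes was not tested.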
